A study of Homo sapiens with 16 samples.

Results

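The E2F transcription factors and the RB pocket proteins they bind were followed at the mRNA level by 10 genes: E2F1, E2F2, E2F3, E2F4, E2F6, E2F7 and E2F8, and the pocket protein genes RB1, RBL1 and RBL2. The E2F family gene E2F5 is not in this set. The 10 genes were taken by gene symbol from the 60669 genes of the deposited count table, and all 10 had enough counts to be among the 16555 genes tested. The samples were 16 RNA-seq libraries of MOLM-13, an established cell line of human acute myeloid leukaemia with an MLL fusion. Cells in RPMI1640 with serum received for 4 days 0.005% DMSO (the vehicle), an EZH2 inhibitor at 1 µM (EZH2i), a PRMT5 inhibitor at 1 µM (PRMT5i), or both inhibitors (the combination), with 4 libraries each. EZH2 is the enzyme of polycomb complex PRC2 that methylates lysine 27 of histone H3, and PRMT5 is an arginine methyltransferase. The inhibitors are not named in the labels, which also do not say whether the 4 libraries of a treatment came from separate cultures, so p-values measure only the spread between these libraries.

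E2F factors bind DNA with a DP partner at the promoters of genes for DNA replication and nucleotide synthesis. In resting cells pocket proteins hold them in a repressed state, and phosphorylation of the pocket proteins by cyclin-dependent kinases sets them free as cells pass from G1 into S phase. E2F1, E2F2 and E2F3 are known mainly as activators, E2F4 and E2F6 as repressors, and E2F7 and E2F8 as atypical repressors that act without a DP partner. None of this control through protein binding or phosphorylation is read by mRNA counts. In bulk RNA, fewer cells of a type or cycle phase and less RNA per cell cannot be told apart.

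E2F1, E2F2, E2F7 and RBL1 are textbook targets of E2F factors themselves, so the promoter windows of 5 of the 10 genes are printed here. The windows are those of RefSeq on GRCh38.p14, 300 bases each around the start of a transcript with the last 50 of them after it, 5′ to 3′ on the gene's strand. E2F1, E2F2, RBL1 and E2F7 are shown because their mRNA fell with PRMT5i, and E2F3 because it holds matches and its mRNA did not pass the test against DMSO. E2F6 also fell with PRMT5i, by a smaller margin (log2 fold change −0.30), and its window, with 1 match, is not printed. E2F8 fell as well but had no RefSeq window. Capitals mark matches to the 7-letter E2F forms TTCCCGC or TTCGCGC or TTGCCGC or TTGGCGC on either strand. The windows are chr20:33686336-33686635 (minus strand) for E2F1, chr1:23531184-23531483 (minus strand) for E2F2, chr20:37095948-37096247 (minus strand) for RBL1, chr12:77065520-77065819 (minus strand) for E2F7 and chr6:20401629-20401928 (plus strand) for E2F3.
E2F1: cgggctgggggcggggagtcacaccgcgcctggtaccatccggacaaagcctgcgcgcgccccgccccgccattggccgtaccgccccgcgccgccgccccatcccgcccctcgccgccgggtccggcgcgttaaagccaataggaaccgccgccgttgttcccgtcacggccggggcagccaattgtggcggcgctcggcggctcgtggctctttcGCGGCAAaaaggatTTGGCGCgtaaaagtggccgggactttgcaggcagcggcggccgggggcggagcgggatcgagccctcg
E2F2: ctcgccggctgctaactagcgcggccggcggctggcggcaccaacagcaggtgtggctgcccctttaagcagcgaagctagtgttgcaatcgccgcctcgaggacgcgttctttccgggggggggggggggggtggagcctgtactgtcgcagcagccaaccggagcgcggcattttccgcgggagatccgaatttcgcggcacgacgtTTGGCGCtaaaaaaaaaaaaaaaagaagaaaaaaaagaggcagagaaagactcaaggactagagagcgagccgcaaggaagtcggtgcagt
RBL1: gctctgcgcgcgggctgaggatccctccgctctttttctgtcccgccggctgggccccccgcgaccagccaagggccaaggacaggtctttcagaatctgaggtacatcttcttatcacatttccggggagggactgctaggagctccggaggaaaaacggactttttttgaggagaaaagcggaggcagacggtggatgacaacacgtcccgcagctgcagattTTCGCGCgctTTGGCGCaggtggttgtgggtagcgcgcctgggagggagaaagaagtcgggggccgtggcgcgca
E2F7: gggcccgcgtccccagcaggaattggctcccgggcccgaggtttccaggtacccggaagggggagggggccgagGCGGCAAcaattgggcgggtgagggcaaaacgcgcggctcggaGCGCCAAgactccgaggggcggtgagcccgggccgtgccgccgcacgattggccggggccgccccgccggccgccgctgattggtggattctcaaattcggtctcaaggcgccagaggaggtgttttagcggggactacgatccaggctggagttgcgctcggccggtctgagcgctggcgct
E2F3: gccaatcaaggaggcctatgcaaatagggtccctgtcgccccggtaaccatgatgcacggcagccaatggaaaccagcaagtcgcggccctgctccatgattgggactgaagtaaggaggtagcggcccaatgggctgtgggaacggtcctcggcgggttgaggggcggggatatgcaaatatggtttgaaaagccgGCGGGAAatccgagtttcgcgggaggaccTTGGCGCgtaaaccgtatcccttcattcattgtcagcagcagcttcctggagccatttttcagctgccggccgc

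In E2F1 the capitals begin 33 and 19 bases upstream of the transcript start, and in E2F2 the single match begins 41 bases upstream. In RBL1 they begin 25 and 15 bases upstream, in E2F7 176 and 133 bases upstream, and in E2F3 53 and 24 bases upstream. RefSeq windows were found for 9 of the 10 genes, as 11 windows, because E2F3 and RBL2 have 2 each; the RB1 window lies inside the gene rather than at its 5′ end. A 7-letter form stood in 6 of the 11 windows, the other being that of E2F6, and in 13% of all 35116 windows of this length. The stricter 8-letter forms TTTCCCGC, TTTCGCGC, TTTGCCGC and TTTGGCGC, which contain the 7-letter ones, stood in 4 of the 11 (E2F1, E2F2, RBL1 and the first window of E2F3) and in 3.31% of all. The cell cycle homology element, searched as TTTGAA or TTCGAA on both strands, stood in 2 of the 11 (E2F3 and RBL2) and in 16.4% of all. A match describes letters only.

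The libraries held 31.1 M to 52.9 M expected counts (M stands for 1e6), and the 10 genes had 222 to 10339 counts per library. Levels are in CPM, counts scaled to a library of 1e6, after TMM scaling, whose factors ran from 0.861 to 1.07. The myeloid identity of the cells was present in every library: 8 of 8 myeloid markers were tested, with summed levels of 1189.7 to 1916 CPM. The T and NK markers summed to 19.3 to 75.1 CPM and the epithelial and fibroblast markers to 12.7 to 31.4 CPM, all below the myeloid sums. Libraries of 1 treatment also differed in the balance between AT-rich and GC-rich transcripts, taken as the mean log2 CPM of the genes in the lowest quartile of GC content minus that in the highest. This balance was 2.02 in DMSO replicate 1 and 0.93 in DMSO replicate 2, spanned 0.86 to 1.81 in EZH2i, and lay between 1.38 and 1.80 in PRMT5i and the combination. DMSO replicate 1 also had 1.70% mitochondrial counts, against 0.213% to 0.792% in the other libraries.

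In DMSO the pocket protein RB1 had the highest mean of the 10 mRNAs per length and E2F7 the lowest. Scaled by exon length, RB1 stood at 28.1 ± 5.40 CPM per kb (SD, n = 4), E2F4 at 20.2 ± 1.09, RBL2 at 17.7 ± 2.53, RBL1 at 12.0 ± 1.69 and E2F3 at 9.70 ± 0.228. Below them came E2F1 at 7.39 ± 0.267, E2F6 at 5.59 ± 0.791, E2F2 at 2.76 ± 0.215, E2F8 at 2.27 ± 0.371 and E2F7 at 1.57 ± 0.138 CPM per kb. In DMSO replicate 2 E2F4, at 21.7 CPM per kb, exceeded RB1, at 20.2. The neighbours E2F4 and RBL2, and E2F2 and E2F8, lay less than the sum of their SDs apart. The repressor E2F4 led the 7 E2F genes followed here in mRNA, and the activator E2F3 exceeded E2F1 and E2F2 on the same scale.

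**Figure D1:**
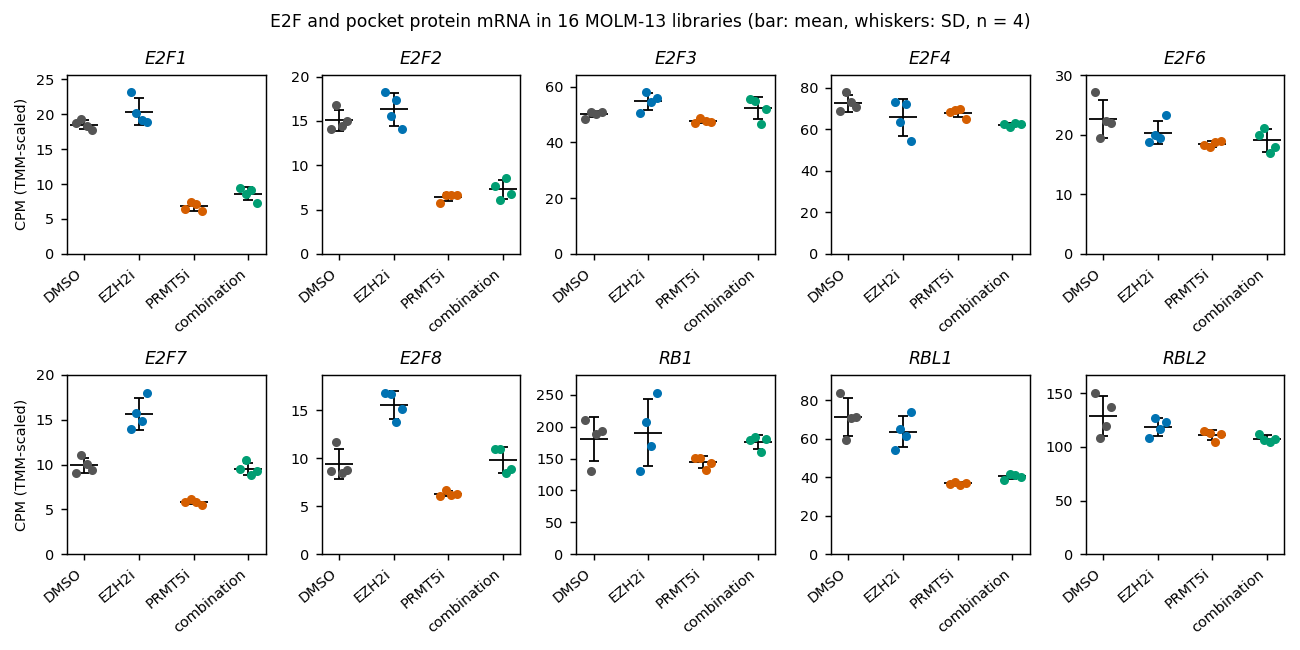
Level of each of the 10 genes in CPM in the 16 libraries, 1 panel per gene, with 4 points per treatment and bars for the mean and SD. E2F1, E2F2 and RBL1 sit lower in PRMT5i and the combination than in DMSO, while E2F7 and E2F8 are highest in EZH2i, lowest in PRMT5i and near the DMSO level in the combination.

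The activator genes E2F1 and E2F2 fell with PRMT5i and stayed low when EZH2i was added. E2F1 (ENSG00000101412.12; GRCh38 chromosome 20, 33675683 to 33686404, minus strand) encodes the activator best known for driving S phase entry. In DMSO its 4 libraries read 18.8, 19.3, 18.3 and 17.7 CPM, and in EZH2i 23.1, 20.2, 19.2 and 18.9 CPM. In PRMT5i they read 6.42, 7.49, 7.21 and 6.11 CPM, and in the combination 9.44, 8.56, 9.14 and 7.27 CPM. Every PRMT5i and combination library lay below every DMSO and EZH2i library, and the PRMT5i and combination ranges overlapped at their edges. E2F1 fell with PRMT5i to 0.368 of its DMSO level (log2 fold change −1.44, SE 0.10, adjusted p = 2.4e-08). Adjusted p-values here and below are from edgeR's quasi-likelihood test, Benjamini-Hochberg adjusted over the 16555 genes tested. In the combination E2F1 was at 0.466 of the DMSO level (−1.10, SE 0.10, adjusted p = 5.1e-07). It stood 0.34 above PRMT5i alone there (SE 0.10, adjusted p = 0.0699), a difference that passed only in some settings, among them without DMSO replicate 1 (adjusted p = 0.0482) or combination replicate 4 (0.41, adjusted p = 0.0395).

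E2F2 (ENSG00000007968.6; chromosome 1, 23506430 to 23531220, minus strand), a close relative of E2F1, followed the same order. It read 14.1, 16.7, 14.5 and 15.0 CPM in DMSO and 18.2, 15.5, 17.4 and 14.1 CPM in EZH2i. It read 5.74, 6.65, 6.63 and 6.61 CPM in PRMT5i and 7.66, 6.07, 8.56 and 6.75 CPM in the combination. The libraries with the PRMT5 inhibitor lay apart from those without it, and those of DMSO and EZH2i were mixed. E2F2 fell by 1.23 on the log2 scale with PRMT5i (SE 0.11, adjusted p = 3.76e-07) and by 1.05 in the combination (SE 0.11, adjusted p = 3e-06). Neither activator passed the test for EZH2i against DMSO, where E2F1 differed by 0.14 (95% interval −0.07 to 0.35) and E2F2 by 0.11 (−0.13 to 0.35).

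E2F3 (ENSG00000112242.14; chromosome 6, 20401906 to 20493715, plus strand), the third activator, gave no call against DMSO. Its mean was 50.1 ± 1.18 CPM in DMSO, 54.7 ± 3.16 in EZH2i, 47.7 ± 0.767 in PRMT5i and 52.3 ± 4.04 in the combination (SD, n = 4 each). The difference from DMSO was −0.07 with PRMT5i (95% interval −0.23 to 0.09) and 0.06 in the combination (−0.10 to 0.22), and neither passed. These intervals lie wholly above those of E2F1 (−1.66 to −1.22 with PRMT5i and −1.32 to −0.89 in the combination). E2F3 was lower in PRMT5i than in EZH2i by a margin that just passed (−0.20, SE 0.07, adjusted p = 0.0461). That call was lost in 15 of 25 alternative settings, among them those without any single PRMT5i library or any of EZH2i replicates 2, 3 and 4.

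The atypical repressors E2F7 and E2F8 rose with EZH2i alone and fell with PRMT5i. No other member passed for EZH2i against DMSO, except that RB1 (higher) and E2F4 (lower, −0.21, adjusted p = 0.0208) did in a fit with GC balance as a covariate. E2F7 and E2F8 are themselves E2F-driven genes and damp E2F activity late in S phase. E2F7 (ENSG00000165891.15; chromosome 12, 77021247 to 77065580, minus strand) read 9.09, 11.1, 10.0 and 9.41 CPM in DMSO and 13.9, 15.7, 14.9 and 18.0 CPM in EZH2i. It read 5.82, 6.13, 5.81 and 5.52 CPM in PRMT5i and 9.49, 10.5, 8.84 and 9.31 CPM in the combination. All EZH2i libraries lay above and all PRMT5i libraries below the other groups, while DMSO and combination libraries were mixed. E2F7 rose 1.58-fold with EZH2i (log2 0.66, SE 0.09, edgeR adjusted p = 8.58e-04) and fell by 0.77 on the log2 scale with PRMT5i (SE 0.10, adjusted p = 1.1e-05). In the combination it differed from DMSO by −0.05, with a 95% interval of −0.26 to 0.15, and from PRMT5i alone by 0.71 (SE 0.10, adjusted p = 6.89e-04).

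E2F8 (ENSG00000129173.12; chromosome 11, 19224063 to 19241620, minus strand) read 8.65, 11.7, 8.47 and 8.76 CPM in DMSO and 16.8, 16.7, 13.7 and 15.1 CPM in EZH2i. It read 6.10, 6.63, 6.14 and 6.31 CPM in PRMT5i and 11.0, 11.0, 8.48 and 8.82 CPM in the combination. DMSO replicate 2 was the highest DMSO library, yet it lay below every EZH2i library, and all PRMT5i libraries lay below the rest. E2F8 stood 1.66-fold higher with EZH2i (adjusted p = 0.00204) and fell by 0.57 with PRMT5i (SE 0.12, adjusted p = 0.00131). In the combination it differed from DMSO by 0.07 (95% interval −0.19 to 0.33), and it was 0.64 above PRMT5i alone (SE 0.12, adjusted p = 0.00627).

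The response of this pair to EZH2i was of like size with and without the PRMT5 inhibitor. For E2F7 it was 0.66 without and 0.71 with it, 2 comparisons that share no library, and the interaction was 0.05 (95% interval −0.24 to 0.35, edgeR adjusted p = 0.891). For E2F8 it was 0.73 without and 0.64 with it, and the interaction was −0.09 (−0.46 to 0.28, adjusted p = 0.852). The calls for EZH2i against DMSO, PRMT5i against DMSO and the combination against PRMT5i passed in each of 25 alternative settings for both genes. Within replicates 1 and 2, and within replicates 3 and 4, the difference of EZH2i from DMSO was 0.56 and 0.75 for E2F7 and 0.73 and 0.74 for E2F8. The difference of the combination from PRMT5i was 0.74 and 0.68 for E2F7 and 0.78 and 0.47 for E2F8. The interaction in the same pairs of replicates was 0.18 and −0.07 for E2F7 and 0.05 and −0.27 for E2F8.

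**Figure D2:**
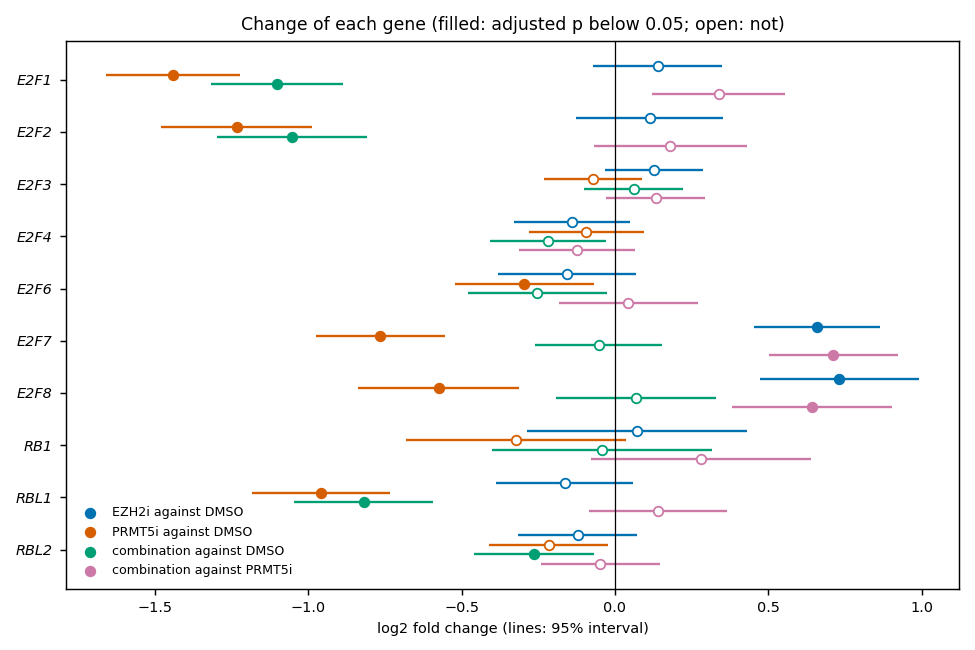
Log2 fold change of each of the 10 genes in 4 comparisons (colours), with lines for the 95% interval and filled points where the adjusted p was below 0.05. E2F7 and E2F8 lie above 0 for EZH2i against DMSO and for the combination against PRMT5i, and E2F1, E2F2 and RBL1 lie below 0 for PRMT5i and for the combination against DMSO.

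MKI67, a marker of dividing cells, was also highest in EZH2i and lowest in PRMT5i on average, like E2F1, E2F2, E2F3, E2F7, E2F8 and RB1. MKI67 read 50.2, 142.7, 79.6 and 71.3 CPM in DMSO and 192, 158, 153 and 149.7 CPM in EZH2i. It read 49.8, 61.5, 56.8 and 50.8 CPM in PRMT5i and 108, 115, 98.1 and 96.9 CPM in the combination. MKI67 was 0.93 higher with EZH2i (SE 0.22, edgeR adjusted p = 0.0169), 0.65 lower with PRMT5i (adjusted p = 0.0262), and 0.94 higher in the combination than in PRMT5i alone (adjusted p = 0.0205). DMSO replicate 2, which had the most E2F8 of its group, also had the most MKI67, and without it the MKI67 difference with PRMT5i was −0.29 (adjusted p = 0.0922). The MKI67 calls were also lost without DMSO replicate 4 for EZH2i, without PRMT5i replicate 1 or 4 for PRMT5i, and without PRMT5i replicate 1, 3 or 4 or combination replicate 1 or 2 for the combination (adjusted p from 0.0557 to 0.0724). The summed T and NK markers stood at 24.9 to 42.5 CPM in DMSO, 49.0 to 75.1 in EZH2i, 19.3 to 33.3 in PRMT5i and 33.7 to 51.3 in the combination, with 2 of the 4 (NCAM1 and CD3D) high enough to be tested. The summed myeloid markers were at 1314 to 1592 CPM in DMSO and 1189.7 to 1229.8 in EZH2i. They were at 1867 to 1916 CPM in PRMT5i and 1632 to 1724 in the combination. These sums did not overlap between groups and were highest in PRMT5i, the group with the lowest mean of E2F1, E2F2, E2F7, E2F8 and RBL1. FLT3 was the largest part, with means of 697, 491, 999 and 836 CPM in the same order of treatments. From DMSO to PRMT5i, MPO (15.7 to 15.0 CPM) and CEBPA (330 to 312 CPM) had lower means, and the other myeloid markers higher ones. With EZH2i, MPO, CSF1R, ITGAM and SPI1 had higher means than in DMSO, and the other myeloid markers lower ones. The part of these markers in the differences of the E2F and pocket genes was not tested.

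Among the remaining E2F genes, E2F4 showed no call against DMSO and E2F6 a small one. E2F4 (ENSG00000205250.8; chromosome 16, 67192169 to 67198918, plus strand) encodes the repressor that works with RBL1 and RBL2 in resting cells. Its mean was 72.4 ± 3.91 CPM in DMSO, 65.7 ± 8.82 in EZH2i, 67.9 ± 2.22 in PRMT5i and 62.3 ± 0.849 in the combination. The combination libraries, 61.0 to 62.8 CPM, all lay below the DMSO libraries, 68.6 to 77.7 CPM, but the difference of −0.22 (SE 0.09) missed the threshold (adjusted p = 0.0594). It passed without DMSO replicate 1 (−0.26, adjusted p = 0.0251), and also without EZH2i replicate 1 or 4 or PRMT5i replicate 2. With PRMT5i alone the difference was −0.09, with a 95% interval of −0.28 to 0.10.

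E2F6 (ENSG00000169016.16; chromosome 2, 11444375 to 11466177, minus strand) encodes a repressor that lacks the pocket binding part and works with a polycomb complex, PRC1.6. It read 27.1, 19.4, 22.4 and 22.0 CPM in DMSO and 18.3, 17.9, 18.8 and 19.0 CPM in PRMT5i. DMSO replicate 1 stood above the rest of its group, and the lowest DMSO library lay just above the highest PRMT5i library. E2F6 was 0.30 lower with PRMT5i (SE 0.10, adjusted p = 0.0352), a call that 10 of 25 alternative settings lost. Without DMSO replicate 1 the difference was −0.21 (adjusted p = 0.101). The call was also lost without DMSO replicate 3 or 4 or any single PRMT5i library, with differences of −0.29 to −0.31 (adjusted p up to 0.0783). EZH2i and combination libraries read 18.8 to 23.3 and 17.0 to 21.2 CPM, and neither group passed against DMSO (−0.16 and −0.25). The combination passed without DMSO replicate 2 (−0.32, adjusted p = 0.0181) or combination replicate 2 (−0.31, adjusted p = 0.048).

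Of the pocket protein genes, RBL1 fell clearly, RBL2 fell slightly in 1 comparison, and RB1 passed in none. RBL1 (ENSG00000080839.11; chromosome 20, 36996349 to 37095995, minus strand) encodes p107, the pocket protein that is itself an E2F target and is made mostly in cycling cells. It read 83.8, 59.2, 70.9 and 71.3 CPM in DMSO and 54.2, 65.2, 61.3 and 73.7 CPM in EZH2i. It read 36.4, 37.6, 35.8 and 36.9 CPM in PRMT5i and 38.6, 41.9, 41.0 and 40.1 CPM in the combination. The groups with the PRMT5 inhibitor were tight and lay below every library without it. RBL1 fell to 0.515 of its DMSO level with PRMT5i (−0.96, SE 0.10, adjusted p = 2.19e-06) and to 0.567 in the combination (−0.82, SE 0.10, adjusted p = 1.46e-05). Every combination library lay above every PRMT5i library, but the difference of 0.14 did not pass (95% interval −0.09 to 0.36, adjusted p = 0.601). With EZH2i alone RBL1 differed by −0.16 (−0.39 to 0.06).

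RBL2 (ENSG00000103479.14; chromosome 16, 53433977 to 53491649, plus strand) encodes p130, the pocket protein of resting cells. It read 151, 109, 120.0 and 138 CPM in DMSO and 109, 127, 116 and 123 CPM in EZH2i. It read 115, 113, 105 and 112 CPM in PRMT5i and 112, 106, 104 and 108 CPM in the combination. RBL2 fell by 0.26 in the combination (SE 0.09, adjusted p = 0.0293), although DMSO replicate 2 lay within the combination's range. The call was lost in 8 of 25 alternative settings: scaling by library totals left −0.13 (adjusted p = 0.199), and leaving out DMSO replicate 1 or 4 left −0.20 and −0.23. It was also lost without combination replicate 2, 3 or 4 (adjusted p = 0.0639, 0.0704 and 0.0587). With PRMT5i alone the difference was −0.22 (adjusted p = 0.0708), and −0.29 without DMSO replicate 2 (adjusted p = 0.00872). Exons of the antisense gene AC007342.6 overlap 9.8% of the RBL2 exon bases, and those of AL136172.1 overlap 3.5% of RBL1, and whether the counting used strand is not stated.

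RB1 (ENSG00000139687.13; chromosome 13, 48303726 to 48599436, plus strand) encodes the founding pocket protein and tumour suppressor. It read 210.2, 130.5, 189 and 194 CPM in DMSO and 130.3, 208, 170.0 and 253 CPM in EZH2i. It read 151, 151, 133 and 144 CPM in PRMT5i and 179, 184, 160.0 and 181 CPM in the combination. DMSO and EZH2i spread over most of the range, while PRMT5i lay below the combination with no overlap. Against DMSO, EZH2i differed by 0.07 (95% interval −0.29 to 0.43), PRMT5i by −0.32 (−0.68 to 0.04, adjusted p = 0.143) and the combination by −0.04 (−0.40 to 0.32). The combination exceeded PRMT5i by 0.28 (−0.08 to 0.64, adjusted p = 0.459). Without DMSO replicate 2 the PRMT5i difference was −0.45 and passed (adjusted p = 0.0249).

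Within DMSO, EZH2i and the combination, RB1 levels ran in the order of the GC balance of the libraries. In EZH2i the balances of replicates 1 to 4 were 0.86, 1.43, 1.20 and 1.81, and in DMSO they were 2.02, 0.93, 1.51 and 1.70, in both groups the order of the RB1 levels. In PRMT5i the order was broken, since replicate 4 had the highest balance (1.64) and less RB1 than replicates 1 and 2. RB1 exons hold 39.3% GC, so RB1 is itself among the low-GC genes that define the balance, as are RBL1 (41.2%) and RBL2 (41.6%). E2F1 (62.5%) and E2F4 (59.3%) are among the high-GC genes that define it. A balance term of matching sign is thus partly built in for these genes. With the GC balance as a covariate, an analysis added after the data were seen, the balance term passed for RB1 at 0.79 log2 per unit (edgeR adjusted p = 4.46e-06), and it passed for 43.3% of all genes. Among the other genes here it passed for RBL1 (0.42), E2F6 (0.38), RBL2 (0.33), E2F2 (−0.36) and E2F4 (−0.29), and not for E2F1 (−0.19), E2F3 (0.07), E2F7 (0.05) and E2F8 (−0.21). In that fit RB1 was 0.29 lower with PRMT5i (adjusted p = 0.00134) and 0.22 higher with EZH2i (adjusted p = 0.0312), and RBL2 was 0.20 lower with PRMT5i (adjusted p = 0.00435).

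**Figure D3:**
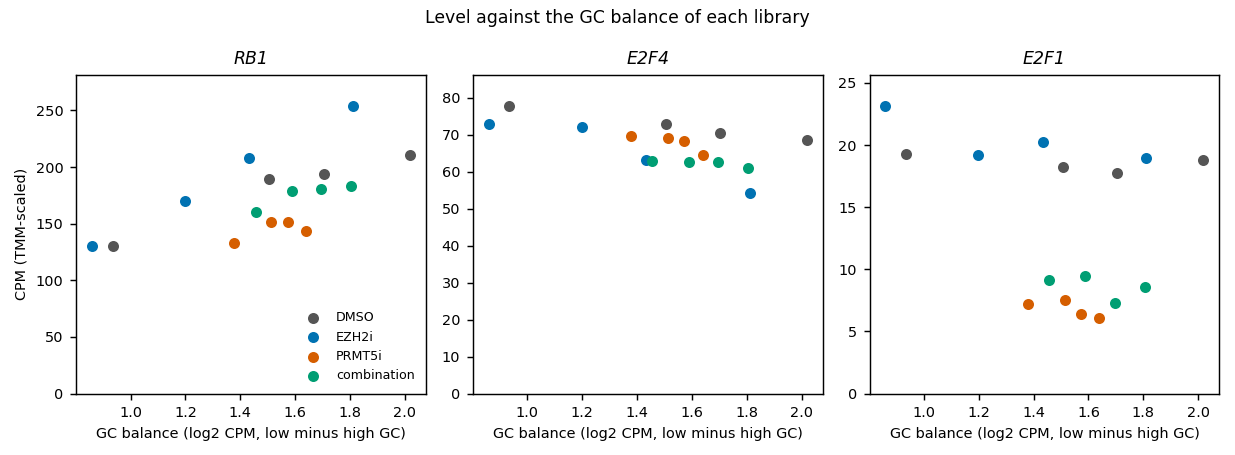
Level of RB1, E2F4 and E2F1 (CPM) against the GC balance of each library (mean log2 CPM of AT-rich minus GC-rich genes), 1 point per library, coloured by treatment. RB1 is higher where the balance is higher within DMSO and EZH2i, and the DMSO libraries farthest apart in balance, 0.93 and 2.02, are those of 130.5 and 210.2 CPM of RB1; between balances of 1.38 and 1.80, E2F1 is lower in every library with the PRMT5 inhibitor than in those without it.

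Counted over the 10 genes, EZH2i against DMSO gave 2 higher and 0 lower, where 7.6% of all tested genes passed, 4.11% higher and 3.49% lower. Both had no overlap between the groups, and 5.48% of all genes were higher and 5.1% lower without overlap. PRMT5i against DMSO gave 6 lower and 0 higher, where 35.3% of all genes passed, 18.3% lower and 17.1% higher. All 6 had no overlap, against 17.2% of genes lower and 16.6% higher without overlap. The combination against DMSO gave 4 lower and 0 higher, where 36.2% of all genes passed, 18.5% lower and 17.6% higher. Without overlap, 4 were lower there (E2F1, E2F2, E2F4 and RBL1), against 16.4% of genes lower and 16.7% higher. These 3 comparisons share the DMSO libraries.

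Relative to PRMT5i, the combination gave 2 higher and 0 lower, where 4.16% of genes passed, 2.91% higher and 1.24% lower. Without overlap, 4 were higher (E2F7, E2F8, RB1 and RBL1; 10.2% of genes) and 1 lower (E2F4; 8.79% of genes). Relative to EZH2i, the combination lowered 5 (E2F1, E2F2, E2F7, E2F8 and RBL1), all without overlap, where 28% of genes passed, 14.6% lower and 13.4% higher, and 15.6% were lower and 15.9% higher without overlap. PRMT5i lowered these 5 and E2F3 relative to EZH2i, all without overlap, where 35.5% of genes passed, 18.6% lower and 16.9% higher, and 19.3% were lower and 19.1% higher without overlap. The median log2 difference from DMSO over the 10 genes was 0.09 for EZH2i, −0.45 for PRMT5i and −0.24 for the combination, and the median of all tested genes was −0.01, −0.00 and 0.00. For the interaction 0 of 10 passed in edgeR and in DESeq2, and 0 had an unadjusted p below 0.05, where 0.29% of all genes passed, 0.254% with a positive and 0.0362% with a negative interaction. RBL1 came nearest at 0.30 (95% interval −0.01 to 0.62, unadjusted p = 0.0531, adjusted p = 0.552).

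The makeup of the summed mRNA of the 7 E2F genes, which leave out E2F5, differed between treatments. Summed per length, the 7 E2F genes gave 49.5 ± 1.45 CPM per kb in DMSO, 51.3 ± 2.19 in EZH2i, 39.1 ± 0.944 in PRMT5i and 40.8 ± 1.48 in the combination (SD, n = 4). The activators E2F1 to E2F3 made up 40.1% of this sum in DMSO, 42.4% in EZH2i, 33.6% in PRMT5i and 36.4% in the combination. E2F1 alone went from 14.9% in DMSO to 6.95% in PRMT5i, while the share of E2F3 was 19.6% and 23.6%. The repressors E2F4 and E2F6 made up 52.1%, 45.5%, 60.2% and 54.1% in the same order of treatments, and E2F7 with E2F8 made up 7.74%, 12.2%, 6.25% and 9.49%. Among the pocket genes RBL1 held 20.8% of the summed level in DMSO and 14.1% in PRMT5i, and RB1 held 48.4% and 51.2%. Shares of 1 sum are tied to each other, so they are given as a description with no test.

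**Figure D4:**
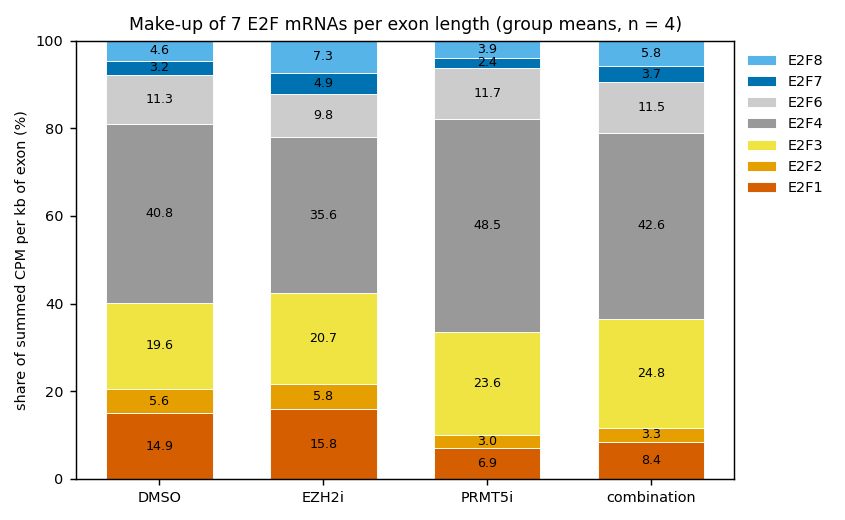
Stacked bars of the share (percent) that each E2F gene takes of the summed CPM per kb of the 7 E2F genes, as the mean of 4 libraries per treatment. The E2F1 segment shrinks from 14.9% in DMSO to 6.95% in PRMT5i, and the E2F7 and E2F8 segments together are widest in EZH2i, at 12.2%.

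Some genes followed a member closely over the 16 libraries. Closeness was the root mean square (RMS) difference of log2 CPM, each gene centred on its own mean, over 9629 protein-coding genes with at least 5 CPM on average. The nearest were GSG2 (0.095) and TCF19 (0.10) for E2F1, CYB561A3 (0.10) and MSH5 (0.12) for E2F2, and GPR27 (0.088) and DCAF16 (0.093) for RBL1. For E2F7 they were SCD (0.11) and DEPDC1B (0.13), for E2F8 SLC20A1 (0.11) and ANKH (0.11), and for E2F6 METTL6 (0.065) and TOPORS (0.066). The members' own RMS deviation from their mean was 0.69 for E2F1, 0.62 for E2F2, 0.51 for E2F7, 0.48 for E2F8, 0.42 for RBL1 and 0.16 for E2F6. Among the members themselves, the closest pairs were E2F6 with RBL2 (0.099), E2F7 with E2F8 (0.15) and E2F1 with E2F2 (0.15).

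The wider pathway was read through 9 lists. The DP partners, which complete the DNA-binding dimer, were 3 genes with 2 tested, since TFDP3 had 0 counts. TFDP1 fell by 0.34 with PRMT5i (SE 0.07, edgeR adjusted p = 0.00151). Of 7 genes for the core of the MuvB complex and its partners MYBL2 and FOXM1, 3 fell and 1 rose with PRMT5i and 0 passed with EZH2i. The MuvB complex joins E2F4 and p130 in resting cells and MYBL2 or FOXM1 in dividing ones. Its subunit gene LIN9 fell by 1.12 (SE 0.18, adjusted p = 9.71e-05), FOXM1 by 0.94 (SE 0.21, adjusted p = 0.00217) and LIN54, for the subunit that binds DNA, by 0.35 (adjusted p = 0.042), while RBBP4 rose by 0.22 (adjusted p = 0.0223). The LIN54 call was lost without any of DMSO replicates 1, 3 and 4, PRMT5i replicates 2, 3 and 4 or combination replicates 3 and 4 (adjusted p up to 0.115), and that of RBBP4 without DMSO replicate 1 or PRMT5i replicate 2 or 4 (up to 0.0897). Without DMSO replicate 2, 2 of the 7 were higher and 1 lower with EZH2i. Over all genes, 2280 were higher and 2311 lower in that fit, against 681 and 578 with all libraries. Antisense exons overlap 15.9% of FOXM1 and 18% of RBBP4.

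Of 9 genes for the kinases that phosphorylate pocket proteins, their cyclins and the activating phosphatase CDC25A, 6 fell with PRMT5i and 1 rose with EZH2i. CCNA2, the S phase cyclin, fell by 1.38 (SE 0.16, adjusted p = 3.9e-06), CDC25A, which activates CDK2, by 1.20 (SE 0.10, adjusted p = 9.21e-08), and CDK2 by 0.93 (SE 0.08, adjusted p = 1.63e-07). CDK4 fell by 0.56 (adjusted p = 1.91e-05), with antisense exons over 43.2% of its exon bases. CCND1, which encodes the G1 cyclin D1, was at 7.55 ± 1.16 CPM in DMSO and 12.5 ± 2.24 in EZH2i (log2 0.73, SE 0.14, adjusted p = 0.0063). It was at 5.68 ± 0.352 CPM in PRMT5i and 12.2 ± 1.98 in the combination, and the combination was 1.11 above PRMT5i (SE 0.14, adjusted p = 5.03e-04). The EZH2i call for CCND1 was lost when only the 8 libraries compared were fitted (adjusted p = 0.0622).

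Of 7 CDK inhibitor genes, which keep pocket proteins active, 5 were tested, and no library had a count for CDKN2A or CDKN2B. CDKN2C rose by 0.36 (SE 0.06, adjusted p = 2.82e-04) and CDKN1A fell by 0.38 (SE 0.07, adjusted p = 3.74e-04) with PRMT5i. CDKN1C rose with EZH2i from 0.740 ± 0.285 to 1.77 ± 0.413 CPM (1.29, SE 0.26, adjusted p = 0.00837), a low level in both groups. Of 8 genes for chromatin partners of RB, 4 rose and 1 fell with PRMT5i. The binding protein gene ARID4A rose by 0.78 (SE 0.18, adjusted p = 0.00239), KDM5A by 0.35 (SE 0.07, adjusted p = 4.26e-04) and ARID4B by 0.35 (adjusted p = 0.00995), and the methyltransferase gene SUV39H1 fell by 0.64 (SE 0.08, adjusted p = 6.07e-06). With 1 DMSO library left out the counts of these partners changed: 3 fell with PRMT5i without replicate 1, and 2 rose with EZH2i without replicate 2, where 0 had passed. Over all genes, 3132 fell with PRMT5i without DMSO replicate 1, against 3023 with all libraries. Without DMSO replicate 2, 2280 of all genes rose with EZH2i, against 681. Antisense exons cover 20.3% of SUV39H1.

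Most genes that E2F factors drive at the G1 to S transition fell with PRMT5i. Of 30 such genes, 29 fell with PRMT5i, with a median log2 difference of −0.96, and 25 fell in the combination, with a median of −0.65. The replication origin gene ORC1 fell by 1.55 (SE 0.07, adjusted p = 5.32e-10), the polymerase gene POLA1 by 1.54 (SE 0.09, adjusted p = 2.91e-09), MCM7 by 1.40 and CDC6 by 1.36 with PRMT5i. With EZH2i 4 of the 30 rose, among them RRM2 (0.51, adjusted p = 0.00782) and ORC1 (0.34, adjusted p = 0.0102), and the median was 0.15. That count was 3 without DMSO replicate 1 and 11, with 1 lower, without DMSO replicate 2. Over all genes, 681 rose with EZH2i with all libraries and 553 without DMSO replicate 1. Without DMSO replicate 2, 2280 of all genes rose and 2311 fell. Relative to PRMT5i, the combination raised 15 of the 30, with a median of 0.42.

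Of 25 mitotic genes under the MuvB complex, 24 fell with PRMT5i, with a median of −1.08, led in p by AURKB (−1.96, SE 0.12, adjusted p = 8.96e-09), TOP2A (−1.54), KIF2C (−1.28) and CCNB2 (−1.25). With EZH2i 0 of the 25 passed in edgeR, 3 had an unadjusted p below 0.05, and 3 rose without DMSO replicate 2. Over all genes, 2280 rose with EZH2i without that library, against 681 with all libraries. The combination raised 18 of the 25 relative to PRMT5i, with a median of 0.59, and 20 of the 25 were lower than in DMSO. For the interaction 0 of the 25 passed, 23 had an unadjusted p below 0.05, and the median was 0.53, against 0.01 over all genes. Of the 30 G1/S genes 0 passed for the interaction, 11 had an unadjusted p below 0.05, and the median was 0.24. The share of all genes with an unadjusted p below 0.05 was not computed. The genes of a list were measured in the same 16 libraries, so these counts are not of independent results. The part of MKI67 and of the GC balance in the values of these lists was not tested, apart from the fit with the balance as covariate, where 29 of 30 and 24 of 25 fell with PRMT5i. Over all genes, 3959 fell with PRMT5i in that fit, against 3023 without the covariate.

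Of 10 partners of E2F6 in the PRC1.6 complex, RYBP rose with PRMT5i (0.54, SE 0.13, adjusted p = 0.00453) and with EZH2i (0.50, SE 0.13, adjusted p = 0.0336), and PCGF6 fell with PRMT5i (−0.64, SE 0.17, adjusted p = 0.0066). The EZH2i call for RYBP was lost without any of DMSO replicates 1, 3 and 4 or EZH2i replicates 2 and 4 (adjusted p from 0.0646 to 0.092). Without DMSO replicate 1, 3 of the 10 were lower with PRMT5i, and without DMSO replicate 2, 2 were lower with PRMT5i and 3 with EZH2i. Over all genes, 3023 were lower with PRMT5i with all libraries, 3132 without DMSO replicate 1 and 3418 without DMSO replicate 2. With EZH2i, 578 of all genes were lower with all libraries and 2311 without DMSO replicate 2. Of 11 germline genes that E2F6 is known to silence, 4 had enough counts to be tested. MAEL rose from 0.105 to 0.568 CPM and STAG3 from 0.644 to 1.10 CPM with PRMT5i, while SYCE2 fell from 1.13 to 0.315 CPM and SMC1B from 1.52 to 0.552 CPM (adjusted p = 6.83e-04, 0.0144, 1.9e-04 and 0.00484). The STAG3 call was lost without PRMT5i replicate 3 (adjusted p = 0.0613). With EZH2i 0 of the 4 passed, and 0 had an unadjusted p below 0.05.

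**Figure D5:**
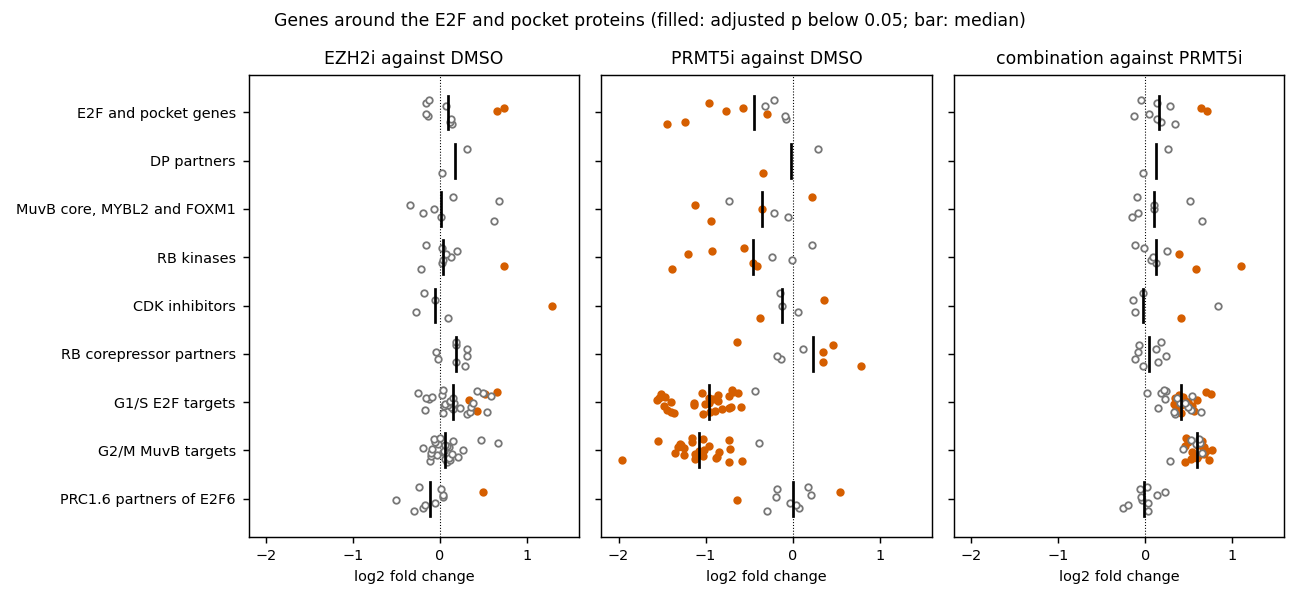
Log2 fold change of every tested gene of 8 pathway lists and of the 10 E2F and pocket genes in 3 comparisons (panels), 1 point per gene, filled where the adjusted p was below 0.05, with a bar at the median. From the left panel to the right, the median of the G1/S list is 0.15, −0.96 and 0.42, while that of the G2/M list is 0.05, −1.08 and 0.59.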

How the data were processed

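RNA-seq was compared in 16 MOLM-13 libraries, 4 per treatment, grouped by their labels. The authors deposited RSEM expected counts per gene, unscaled; reads were aligned with STAR 2.5.3 to GRCh38.p7, per the submitters' processing notes, and the RSEM version, annotation and strand setting are not given in the sources used here. Of the expected counts, 12.0% were not whole, since RSEM divides reads that match several genes, and they were rounded here (at most 0.0674% for a member). Genes passing filterByExpr, 16555 of 60669, were scaled by TMM and fitted in edgeR 4.0.16 (R 4.3.3) with 1 mean per treatment over 16 libraries; the quasi-likelihood F test was Benjamini-Hochberg adjusted over all tested genes, with a threshold of 0.05. Standard errors are the log2 fold change divided by the root of F, and 95% intervals used 12 residual degrees of freedom. The procedure was tested on simulated data. CPM per kb used exon lengths of GENCODE 29 on GRCh38, and gene positions are from the same annotation; promoters are from RefSeq, GRCh38.p14.

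The 10 members, the gene lists, the motifs and the alternatives were chosen with earlier results of these data known. Named genes were the members, MKI67, from each list up to 4 genes with the smallest p past the threshold for PRMT5i and up to 2 for EZH2i, and for each member past the threshold with PRMT5i the 2 genes nearest in pattern; other names were chosen after their values were seen. Alternatives were library totals, DESeq2 1.42.0 and its size factors, no filter on low counts, only the groups compared, a replicate block, a term for replicates 1 and 2 against 3 and 4 (no member passed for it, adjusted p from 0.176 to 0.979), each library left out, and, added after seeing the data, GC balance as a covariate and DMSO replicates 1 and 2 both left out. GC balance used 3214 genes in each quartile (GC up to 43.1% and from 57.4%). Depth limits precision through counting error; members had at least 222 counts per library.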

Additional observations from a re-analysis of the deposited data

Results flagged for a closer look

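Among the 40 combinations of a member and a treatment, 1 library stood apart from the other 3 of its group in 2 combinations, where its gap to the nearest library, as a share of the group's range, exceeded Dixon's 95% critical value for 4 samples. Chance alone marks about 1 in 20 groups. E2F2 in PRMT5i replicate 1 was at a log2 CPM of 2.53, below the other 3 libraries of that treatment, the nearest of which was at 2.74. E2F8 in DMSO replicate 2 was at a log2 CPM of 3.55, above the other DMSO libraries, the nearest of which was at 3.14. Without DMSO replicate 2 the calls for E2F8 against DMSO passed with EZH2i and with PRMT5i as before, and without PRMT5i replicate 1 the E2F2 call passed as well.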

How the results depend on the processing

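The number of the 10 members past the threshold was 2 for EZH2i, 6 for PRMT5i and 4 for the combination against DMSO, 2 for the combination against PRMT5i, 5 for the combination against EZH2i, 6 for PRMT5i against EZH2i and 0 for the interaction. With GC balance as a covariate, an alternative chosen after seeing the data, it was 4 for EZH2i against DMSO and 8 for the combination against EZH2i, and fitting only the groups compared gave 4 for the combination against PRMT5i. Over all genes, these fits called 2640, 6086 and 2099, against 1259, 4633 and 688 in the main fit. Leaving out 1 library at a time gave 2 to 2, 5 to 8, 3 to 5, 2 to 3, 5 to 5, 5 to 7 and 0 to 0 in the order of the 7 comparisons above. For all genes the ranges were 499 to 4591, 4898 to 6853, 5122 to 7110, 263 to 1011, 3714 to 5565, 5035 to 6794 and 28 to 124. No member call reversed in any alternative. The E2F1 difference between the combination and PRMT5i (0.34, adjusted p = 0.0699) passed in 9 of 25 alternatives, among them DESeq2 (adjusted p = 0.0272) and those without DMSO replicate 1 (adjusted p = 0.0482) or combination replicate 4 (0.41, adjusted p = 0.0395). E2F4 in the combination against DMSO passed in 6 of 25, E2F6 there in 3, and RBL2 with PRMT5i in 3.

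The labels give the replicate numbers no shared source, and the deviations did not show pairing in every pair: of 24 pairs with the same number 9 had deviations correlated above 0.1 (from −0.272 to 0.236, mean 0.0389 against −0.0126 for other pairs), and 8 of 16 libraries correlated best with their own number, a hint from the data and not from the design. Pairs with different numbers spanned a wider range, from −0.358 to 0.472, the highest being DMSO replicate 2 with EZH2i replicate 1. With a replicate block the member counts were 2, 6, 4, 3, 5, 5 and 0, since E2F1 passed for the combination against PRMT5i (adjusted p = 0.0415) and E2F3 did not for PRMT5i against EZH2i (adjusted p = 0.0509). Over all genes the block gave 1430, 5939, 6130, 857, 4740, 5936 and 50, against 1259, 5847, 5990, 688, 4633, 5870 and 48 without it.

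Over all genes, 1259 passed for EZH2i against DMSO, against 2149 in DESeq2, 135 with only the groups compared, 2640 with GC balance, 2418 without DMSO replicates 1 and 2, and 499 to 4591 with 1 library left out (without DMSO replicates 4 and 2). For the combination against PRMT5i 688 passed, against 1064, 2099, 1879, 1358 and 263 to 1011 in that order. For the interaction 48 passed, against 121 in DESeq2, 92 with GC balance, 83 without DMSO replicates 1 and 2, and 28 to 124 with 1 library left out. Scaling by library totals moved the median of all genes in the combination against DMSO from 0.00 to 0.13. The cause of these differences was not tested.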
